A study of Mus musculus with 4 samples.

Results

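The IL-4 receptor and STAT6 signalling chain was studied as 10 of the 16403 genes listed over the 4 libraries. These genes were chosen by name for what their proteins do, but with earlier results of these data known. They were the receptor subunits Il4ra, Il13ra1 and Il2rg, the Janus kinases Jak1, Jak3 and Tyk2, the transcription factor Stat6, the adaptor Irs2, and the phosphatases Ptpn6 and Ptpn1. All 10 were found by their NCBI gene ID and were listed in each library.

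The libraries held total RNA of thioglycolate-elicited peritoneal macrophages from C57BL/6 mice, 1 library for each combination of genotype and treatment. The genotypes were wild-type and TIF1a-KO (TIF1a-/-), the latter being mice in which floxed Trim24, the gene of TIF1a, was deleted by LysM-Cre in the myeloid lineage. Cells of both genotypes were elicited with 4% thioglycolate, collected on day 4, left to adhere for 4 h and kept in medium with 0.5% serum, and the study's methods give an age of 6 to 8 weeks for such donors. They were then left nontreat or given mouse IL-4 at 20 ng/mL for 6 h. LysM-Cre is active in granulocytes as well as macrophages. Whether the wild-type mice carried the Cre or the floxed allele, and whether a library came from 1 mouse or a pool, is not given in the sources used here. With 1 library per group, all tests between a pair of libraries compare those libraries and not the conditions, and their errors cover counting only.

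IL-4 signals through a pair of receptor complexes. In type I receptors the IL-4 receptor alpha chain pairs with the common gamma chain (encoded by Il2rg) and uses JAK1 and JAK3, and in type II receptors, which also bind IL-13, it pairs with IL-13R alpha 1 and uses JAK1 and TYK2. The kinases phosphorylate the receptor tail, where STAT6 docks, is phosphorylated, and leaves as a dimer for the nucleus to drive the genes of alternative macrophage activation. The receptor also binds IRS2, which feeds phosphoinositide 3-kinase, and SHP-1 (Ptpn6) and PTP1B (Ptpn1) remove phosphates from the chain.

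Promoter sequences from RefSeq (GRCm38.p6) were read for all 10 genes, because STAT6, which the cytokine activates, is a DNA-binding factor. The letters TTCNNNNGAA, the spacing that STAT6 prefers, were searched on both strands. Each window ran from 250 bases before to 50 bases after the start used for that promoter. For Jak1, Tyk2, Stat6 and Ptpn1 the start used lies inside the gene span given below. The whole Ptpn1 window, from 167932077, lies downstream of the gene start at 167930750. The letters TTCNNNNGAA occurred in 0 of the 10 promoters and in 6.95% of all 32851 promoters of the table. The related letters TTCNNNGAA, preferred by other STAT factors, also occurred in 0 of the 10, against 8.30% of all. The core letters of the myeloid factor PU.1, GAGGAA, occurred in 1 of the 10, Stat6, and in 28.3% of all. These counts describe the letters of short windows and not binding. The 250 bases before the start used are given here for Il4ra and Il13ra1, receptor subunits whose levels lay in opposite directions after IL-4, and for Stat6. In Stat6, capitals mark the matches to GAGGAA, both read on the other strand and beginning 72 and 66 bases before the start used. The RefSeq gene start of Stat6 is 127642955, so the last bases shown for Stat6 lie inside its gene span. The windows were chr7:125552021-125552270, chrX:36111858-36112107 and chr10:127642736-127642985, all on the plus strand, with 17, 21 and 6 CpG dinucleotides.
Il4ra: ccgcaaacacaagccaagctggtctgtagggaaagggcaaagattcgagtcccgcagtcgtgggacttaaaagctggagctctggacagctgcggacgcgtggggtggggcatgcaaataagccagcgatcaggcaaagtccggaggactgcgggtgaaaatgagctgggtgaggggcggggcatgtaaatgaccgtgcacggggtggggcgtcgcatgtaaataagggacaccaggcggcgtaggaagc
Il13ra1: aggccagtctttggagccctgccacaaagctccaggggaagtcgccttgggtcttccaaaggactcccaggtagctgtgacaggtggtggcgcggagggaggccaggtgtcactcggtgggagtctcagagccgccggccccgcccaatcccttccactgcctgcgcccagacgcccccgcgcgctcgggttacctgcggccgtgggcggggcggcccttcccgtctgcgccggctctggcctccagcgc
Stat6: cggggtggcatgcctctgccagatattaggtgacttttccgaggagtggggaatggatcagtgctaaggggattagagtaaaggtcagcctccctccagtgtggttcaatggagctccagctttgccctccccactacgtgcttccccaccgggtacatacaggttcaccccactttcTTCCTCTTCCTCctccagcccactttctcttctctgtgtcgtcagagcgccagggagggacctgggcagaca

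Each library held between 11026033 and 11250099 expected reads. Trim24 stood at 2.55 and 1.48 FPKM in wild-type cells, nontreat and IL-4, and at 0.06 and 0.14 FPKM (4 and 10 reads) in TIF1a-KO cells. Arg1, a known STAT6 target, went from 1.84 to 463 FPKM with IL-4 in wild-type cells and from 5.40 to 733 FPKM in TIF1a-KO cells. All 8 macrophage markers were listed in every library, with summed levels of 8320 to 14906 FPKM. The sum was lower in TIF1a-KO because of Lyz2, the most abundant marker, listed at 5193 and 4761 FPKM against 11289 and 10811. Of the other markers, Adgre1, Itgam and Mertk were higher in TIF1a-KO in both treatments. The genotype difference of Csf1r, Cd68, Fcgr1 and Cd14 changed direction between the treatments. Markers of B cells summed to 4.08 to 6.52 FPKM, T cells to 1.14 to 2.07, NK cells to 0 to 0.31, neutrophils to 7.58 to 11.3, eosinophils to 1.06 to 2.04, mast cells to 2.55 to 5.99, mesothelial cells to 1.14 to 2.12 and dendritic cells to 0.45 to 0.96. S100a9, Ly6g and Epx were at 0 throughout. The wild-type IL-4 library stood apart in transcript length. Its log2 ratio to the nontreat library had a Spearman's rho of -0.37 with length across 10443 genes, against -0.11 for the TIF1a-KO pair, and TIF1a-KO against wild-type after IL-4 had a rho of 0.52. A smooth curve over length was therefore subtracted as an alternative, and comparisons with that library are given with and without this removal where it mattered.

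The genes of the chain differed widely in level. Il2rg and Ptpn6 were the most abundant by FPKM, which is scaled per transcript length, with means over the libraries of 115 and 94.3. They were followed by Jak1 at 67.4, Stat6 at 64.4, Ptpn1 at 49.1, Tyk2 at 17.6, Il4ra at 10.9, Il13ra1 at 6.50, Jak3 at 3.23 and Irs2 at 2.51. This order did not hold in every library. Stat6 was listed above Jak1 in both nontreat libraries and below it in both IL-4 libraries, and Ptpn6 was above Il2rg in the TIF1a-KO nontreat library. Within a gene, the highest library exceeded the lowest by 1.08 times for Jak1, the least variable, and by 2.43 times for Irs2, the most variable.

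**Figure D1:**
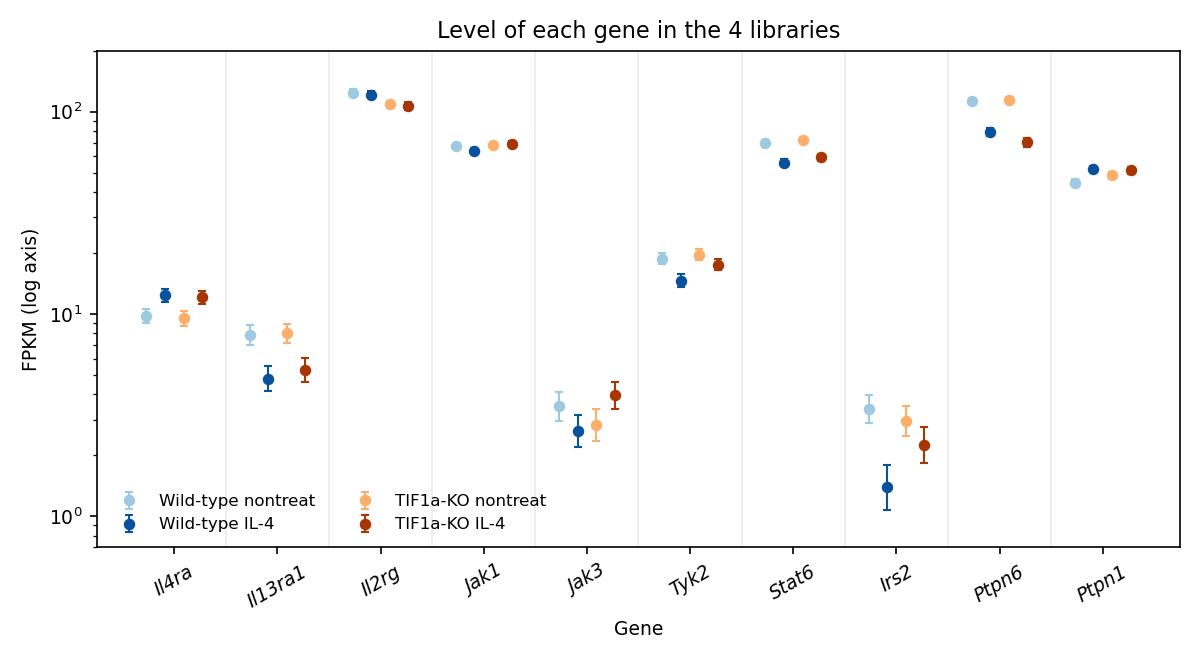
FPKM of the 10 genes on a log axis in the 4 libraries; points are single libraries and bars are 95% exact Poisson intervals of the read count, which cover counting error only. Il13ra1, Stat6, Tyk2, Irs2 and Ptpn6 lie lower, and Il4ra and Ptpn1 higher, in both IL-4 libraries than in both nontreat libraries.

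Whether IL-4 alters the expression of its own receptor was asked first. Il4ra (gene ID 16190, chromosome 7, 125552271 to 125579474), the ligand-binding chain of both receptor types, was listed at 9.76 FPKM (95% counting interval, 8.97 to 10.6) in wild-type nontreat cells, at 12.4 (11.5 to 13.3) with IL-4, at 9.51 (8.73 to 10.3) in TIF1a-KO nontreat cells and at 12.1 (11.2 to 13.0) with IL-4. Both IL-4 libraries lay above both nontreat libraries, with no overlap of the intervals, and the intervals of the genotypes overlapped within each treatment. The log2 IL-4 ratio was 0.34 ± 0.08 (SE, counting error) in wild-type cells and 0.34 ± 0.08 in TIF1a-KO cells, a fold of 1.26 and 1.27, below the 1.5-fold threshold (adjusted p = 0.00016 and 0.00025, Fisher's exact test). With the length trend removed the wild-type ratio was 0.56.

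Il13ra1 (gene ID 16164, chromosome X, 36112108 to 36171262), the subunit that makes the type II receptor, lay in the opposite direction. It was listed at 7.87 FPKM (7.04 to 8.77) in wild-type nontreat cells and 4.79 (4.15 to 5.50) with IL-4, and at 8.02 (7.18 to 8.93) and 5.30 (4.62 to 6.05) in TIF1a-KO cells. The IL-4 libraries were thus the low ones in both genotypes. Il13ra1 fell by 0.70 on the log2 scale in wild-type cells (SE 0.13, adjusted p = 1.5e-07, Fisher's exact test) and by 0.59 in TIF1a-KO cells (SE 0.13, adjusted p = 1.5e-05), the latter a fold of 1.504 that only just passed the threshold. The ratio of Il4ra to Il13ra1 FPKM accordingly went from 1.24 to 2.58 in wild-type and from 1.19 to 2.28 in TIF1a-KO cells.

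Il2rg (gene ID 16186, chromosome X, 101264385 to 101268255), the common gamma chain shared with the receptors of IL-2, IL-7 and other cytokines, was listed at 124.3 FPKM (119 to 130) and 121 (116 to 126) in wild-type cells without and with IL-4, and at 109 (104 to 113) and 107 (102 to 112) in TIF1a-KO cells. The wild-type libraries were the high ones in both treatments, and the log2 IL-4 ratios were -0.04 ± 0.04 and -0.02 ± 0.05 (adjusted p = 0.67 and 0.86, Fisher's exact test). The wild-type ratio was -0.13 with the length trend removed (adjusted p = 0.014, exact binomial test), well under 1.5-fold. Il2rg exceeded Il4ra by 12.7 and 9.82 times in wild-type cells and by 11.4 and 8.87 times in TIF1a-KO cells, nontreat and IL-4.

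The Janus kinases of the chain differed in level more than in response. Jak1 (gene ID 16451, chromosome 4, 101151974 to 101265282), the kinase bound to the IL-4 receptor alpha chain, was listed at 67.3, 64.0, 68.7 and 69.4 FPKM in wild-type nontreat, wild-type IL-4, TIF1a-KO nontreat and TIF1a-KO IL-4 cells. Its log2 IL-4 ratio was -0.07 ± 0.03 in wild-type cells (adjusted p = 0.080, Fisher's exact test), which turned to 0.17 with the length trend removed, and 0.02 ± 0.03 in TIF1a-KO cells. Tyk2 (gene ID 54721, chromosome 9, 21104068 to 21131393), the kinase of the IL-13R alpha 1 chain, was listed at 18.8 FPKM (17.6 to 20.0) and 14.6 (13.6 to 15.7) in wild-type cells and at 19.7 (18.5 to 20.9) and 17.5 (16.4 to 18.7) in TIF1a-KO cells. Its wild-type ratio of -0.36 ± 0.07 was under 1.5-fold (adjusted p = 9.0e-07) and became -0.16 after removal of the trend (exact binomial test, adjusted p = 0.057).

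Jak3 (gene ID 16453, chromosome 8, 71676383 to 71690577), which associates with the gamma chain and is best known from lymphocytes, was the least abundant kinase. It was listed at 3.49 FPKM (2.96 to 4.09, 151 reads) in wild-type nontreat cells, 2.65 (2.19 to 3.18, 116 reads) with IL-4, 2.83 (2.35 to 3.38, 123 reads) in TIF1a-KO nontreat cells and 3.95 (3.37 to 4.61, 163 reads) with IL-4. The IL-4 library was the lower one in wild-type and the higher one in TIF1a-KO cells, but the intervals of each pair overlapped and neither ratio passed the test (-0.38 ± 0.18 and 0.47 ± 0.17, adjusted p = 0.068 for each, Fisher's exact test). T cell markers were at 1.52 and 1.14 FPKM in wild-type and 2.07 and 1.60 FPKM in TIF1a-KO libraries, and their part in the Jak3 values was not tested. In such bulk samples, fewer cells of a type and less RNA per cell cannot be told apart.

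Stat6 (gene ID 20852, chromosome 10, 127642955 to 127660987), the transcription factor at the end of the chain, was listed at 69.7 FPKM (67.2 to 72.2, 2951 reads) in wild-type nontreat cells and 56.0 (53.8 to 58.3, 2420 reads) with IL-4. In TIF1a-KO cells it was listed at 72.6 FPKM (70.0 to 75.2, 3070 reads) and 59.5 (57.1 to 61.8, 2514 reads). Both IL-4 libraries lay below both nontreat libraries with a gap between their intervals. The folds were 1.24 and 1.22 downwards, below the threshold (log2 ratios of -0.31 ± 0.04 and -0.29 ± 0.04, adjusted p = 2.5e-14 and 1.7e-12, Fisher's exact test), and the direction held with the length trend removed, at -0.23 and -0.28.

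Irs2 (gene ID 384783, chromosome 8, 10984681 to 11008929), the adaptor that links the receptor to phosphoinositide 3-kinase, showed the highest fold of the chain. It was listed at 3.40 FPKM (2.88 to 3.99, 152 reads) in wild-type nontreat cells and 1.40 (1.08 to 1.79, 64 reads) with IL-4, and at 2.96 (2.48 to 3.51, 132 reads) and 2.26 (1.84 to 2.75, 101 reads) in TIF1a-KO cells. The wild-type IL-4 library stood below the other libraries. Irs2 fell by 1.22 on the log2 scale in wild-type cells (SE 0.21, adjusted p = 7.4e-09, Fisher's exact test), and by a similar 1.12 with the length trend removed. In TIF1a-KO cells the ratio of -0.37 ± 0.19 did not pass the test (adjusted p = 0.15).

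Of the phosphatases, Ptpn6 (gene ID 15170, chromosome 6, 124720707 to 124738709), which encodes the haematopoietic phosphatase SHP-1, was listed at 113 FPKM (109 to 117) and 79.2 (75.7 to 82.7) in wild-type cells and at 114 (110.3 to 119) and 70.5 (67.2 to 73.9) in TIF1a-KO cells. The IL-4 libraries were the low ones in both genotypes. Ptpn6 fell by 0.70 on the log2 scale in TIF1a-KO cells (SE 0.04, adjusted p = 1.5e-56, Fisher's exact test). In wild-type cells its ratio was -0.51 ± 0.04 (adjusted p = 9.0e-33), a fold of 1.43 that stayed under the threshold. Ptpn1 (gene ID 19246, chromosome 2, 167930750 to 167979385), which encodes PTP1B of the endoplasmic reticulum, was listed at 44.6 FPKM (42.7 to 46.5), 52.1 (50.04 to 54.1), 48.4 (46.4 to 50.4) and 51.4 (49.4 to 53.5) in the same order. Its ratios were 0.22 ± 0.04 in wild-type cells (adjusted p = 1.1e-06) and 0.09 ± 0.04 in TIF1a-KO cells (adjusted p = 0.12). The ratio of Ptpn6 to Ptpn1 FPKM went from 2.54 to 1.52 and from 2.37 to 1.37.

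In counts, 2 of the 10 genes fell with IL-4 in wild-type cells, Il13ra1 and Irs2, and 0 rose, where 7.87% of the 15593 genes tested fell and 4.91% rose. With the length trend removed the calls over all genes were 808 higher and 816 lower in place of 766 and 1227, and the 2 calls of the chain stayed. In TIF1a-KO cells 2 fell, Il13ra1 and Ptpn6, and 0 rose, where 4.03% of the 15738 genes tested fell and 5.29% rose. The median log2 ratio of the chain was -0.34 in wild-type cells, against -0.03 over all genes tested, and -0.09 in TIF1a-KO cells, against 0. The chain's medians were -0.20 and -0.09 with the length trend removed.

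**Figure D2:**
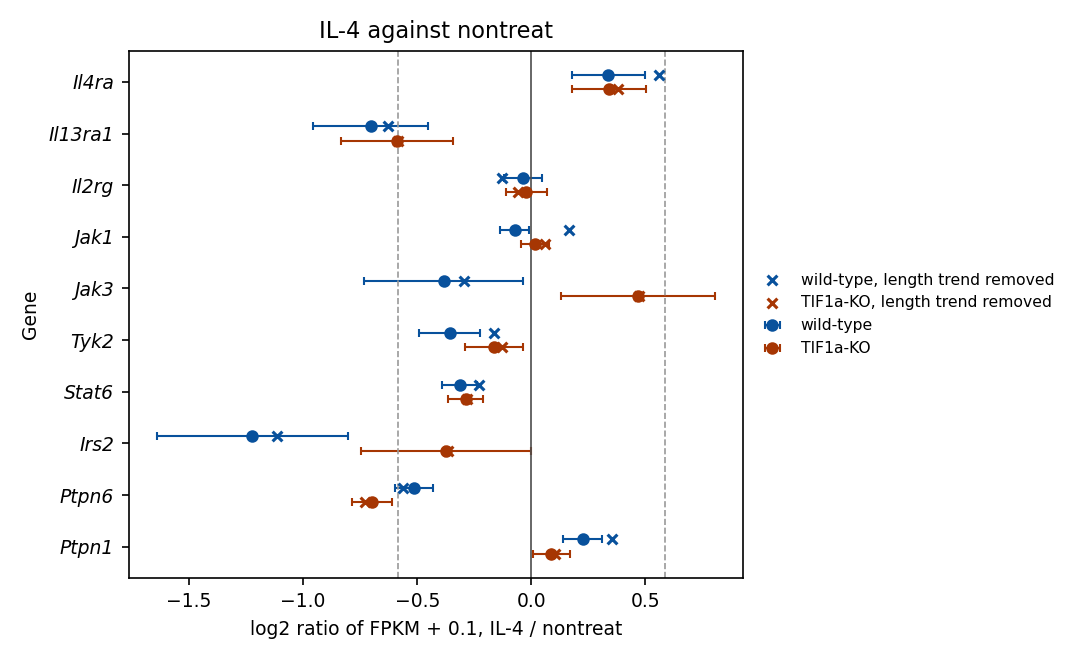
Log2 ratio of FPKM + 0.1, IL-4 over nontreat, for each gene in wild-type (blue) and TIF1a-KO (brown) cells; bars are 95% counting intervals, crosses the same ratio with the length trend removed, and dashed lines the 1.5-fold threshold. Il13ra1 lies past the threshold in both genotypes, Irs2 in wild-type cells and Ptpn6 in TIF1a-KO cells, and Jak3 lies on opposite sides of 0.

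A model with additive terms for genotype and treatment was then fitted to all 4 libraries, which leaves 1 residual degree of freedom. That residual is the departure from additivity, which stands in for a spread between replicates that these libraries cannot give. The p-values of this fit therefore do not measure variation between replicates. With edgeR (quasi-likelihood test, Benjamini-Hochberg adjusted p), 1 of the 10 genes rose with IL-4 and 4 fell, where 12% of the 11791 genes tested rose and 13.3% fell. These calls rest on the adjusted p alone, with no fold threshold, and therefore include changes below 1.5-fold. Il4ra rose by 0.35 on the log2 scale (adjusted p = 0.017). Irs2 fell by 0.79 (adjusted p = 0.0090), Il13ra1 by 0.65 (adjusted p = 0.00092), Ptpn6 by 0.60 (adjusted p = 0.00020) and Stat6 by 0.29 (adjusted p = 0.021). The fit takes the responses of both genotypes as equal. For Irs2 it joins a called log2 ratio of -1.22 in wild-type cells and an uncalled -0.37 in TIF1a-KO cells. Tyk2 (-0.25, adjusted p = 0.072) and Ptpn1 (0.17, adjusted p = 0.19) did not pass, although Ptpn1 did with the length trend removed (0.24, adjusted p = 0.0032), and Il2rg, Jak1 and Jak3 lay between -0.02 and 0.02. These calls depended on the model. By DESeq2 only Ptpn6 passed, by limma Il13ra1, Stat6 and Ptpn6 passed, and by edgeR on every gene with a read Il13ra1 and Ptpn6 passed. Without the wild-type IL-4 library the fit would have no residual degree of freedom.

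To ask whether loss of TIF1a alters the chain itself, the genotypes were compared within each treatment. Without IL-4, 0 of the 10 genes were called, where 1.58% of the 15623 genes tested were. Il2rg and Ptpn1 had an unadjusted p under 0.05 (Fisher's exact test), but the share of all genes under that p was not counted. The log2 ratios of TIF1a-KO to wild-type ran from -0.29 ± 0.17 for Jak3 to 0.12 ± 0.04 for Ptpn1. For Stat6 the ratio was 0.06 ± 0.04, with a 95% counting interval of the fold from 0.990 to 1.10, and for Il4ra it was -0.04 ± 0.09, with a fold from 0.866 to 1.10.

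With IL-4, 1 of the 10 genes was called, where 3.8% of the 15573 genes tested were. This was Irs2, higher in TIF1a-KO cells by a log2 ratio of 0.65 ± 0.23 (adjusted p = 0.019, Fisher's exact test), which became 0.56 with an adjusted p of 0.078 by the exact binomial test when the length trend was removed. Jak3 had a ratio of 0.56 ± 0.17, a fold of 1.47 just under the threshold (adjusted p = 0.020), and 0.48 with the trend removed (adjusted p = 0.088). Tyk2 had 0.26 ± 0.07 and 0.09 after removal, and Jak1 had 0.12 ± 0.03, which turned to -0.09. Ptpn6 had -0.17 ± 0.05 (adjusted p = 0.0031) and -0.12 after removal (adjusted p = 0.075). For Stat6 the ratio was 0.09 ± 0.04 (a fold from 1.004 to 1.12, unadjusted p = 0.042, adjusted p = 0.15, Fisher's exact test), and 0.01 with the trend removed. Il2rg, Jak1, Jak3, Tyk2, Stat6, Irs2 and Ptpn6 had an unadjusted p under 0.05 by Fisher's exact test, before removal of the trend. The share of all genes under that p was not counted, so this list has no background to be read against.

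Il2rg was lower in TIF1a-KO cells in both treatments, by a log2 ratio of -0.19 ± 0.04 without IL-4 (adjusted p = 0.00035, Fisher's exact test) and -0.18 ± 0.04 with IL-4 (adjusted p = 0.00038), folds of 1.14 and 1.13 under the threshold. With the length trend removed these were -0.16 and -0.09. In the additive edgeR fit 0 of the 10 genes had a genotype effect, where 1.66% of the genes tested did. There, Il2rg alone of the chain had an unadjusted p under 0.05, with a log2 effect of -0.19 (adjusted p = 0.34). The share of all genes under that unadjusted p was not counted. DESeq2 and limma likewise called 0 of the 10.

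**Figure D3:**
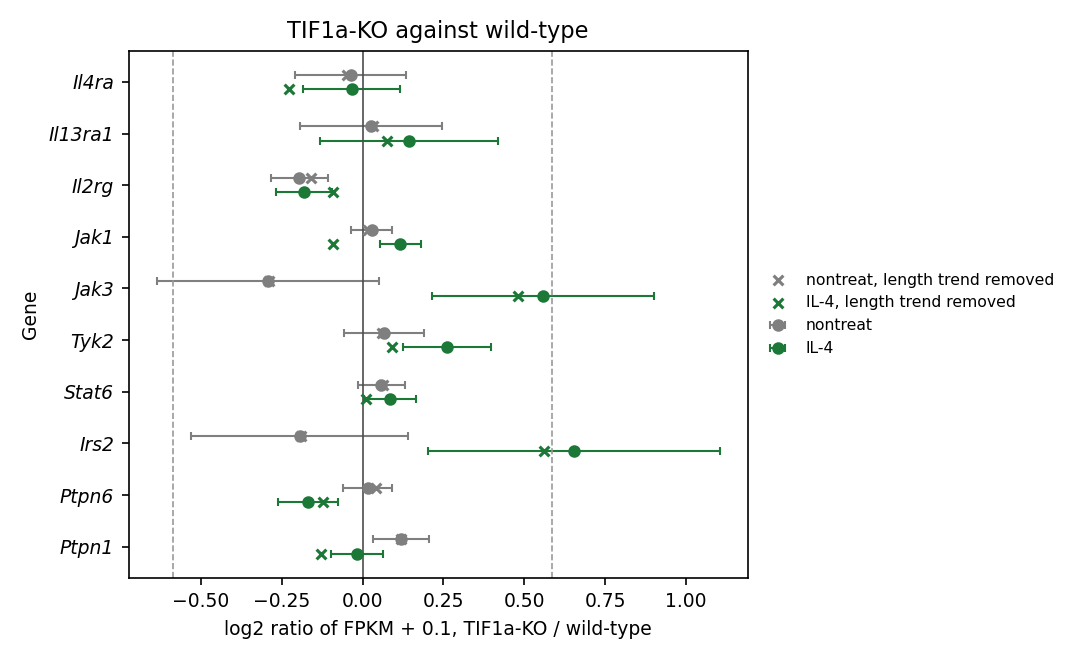
Log2 ratio of FPKM + 0.1, TIF1a-KO over wild-type, for each gene without IL-4 (grey) and with IL-4 (green); bars are 95% counting intervals, crosses the ratio with the length trend removed and dashed lines the 1.5-fold threshold. Only Irs2 with IL-4 lies past the threshold, and its cross lies inside it.

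Whether the IL-4 response itself differed between the genotypes was tested on the 4 counts of each gene. Of the 10 genes 2 were called, where 1.87% of 16371 genes were. The response of Jak3 was higher in TIF1a-KO than in wild-type cells by 0.81 on the log2 scale (95% counting interval, 0.33 to 1.30, adjusted p = 0.019, exact conditional test), and that of Irs2 by 0.89 (0.32 to 1.45, adjusted p = 0.033). With the length trend removed the differences were 0.73 (adjusted p = 0.089) and 0.79 (adjusted p = 0.12), and neither was called. Both genes rest on 64 to 163 reads per library. For Ptpn6 the difference was -0.19 (-0.31 to -0.07, adjusted p = 0.034), and -0.16 with the trend removed (adjusted p = 0.14). For Ptpn1 it was -0.14 (adjusted p = 0.18), and -0.25 with the trend removed (adjusted p = 0.0024). Both genes were under the 1.5-fold threshold in either case. For Il4ra the difference was 0.002 (-0.23 to 0.23) and for Stat6 0.03 (-0.08 to 0.13), so that the responses of the receptor and of the transcription factor differed by less than 1.5-fold within the counting error.

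The other genes of the pathway were read from a list of 43, of which the ligands Il4 and Il13 were listed in none of the libraries. With IL-4, 7 of the 40 list genes tested rose and 5 fell in wild-type cells, where 4.91% of all genes rose and 7.87% fell. In TIF1a-KO cells 8 of 41 rose and 2 fell, where 5.29% of all genes rose and 4.03% fell. The median log2 ratio of the list was -0.18 in wild-type cells, against -0.03 over all genes tested, and -0.0095 in TIF1a-KO cells, against 0. The wild-type median turned to 0.04 with the length trend removed. Jak2 is a kinase of many cytokine receptors and was on this list, not among the genes chosen as the chain. It rose from 10.1 to 26.4 FPKM in wild-type (log2 ratio 1.37 ± 0.07) and from 10.3 to 29.0 FPKM in TIF1a-KO cells (1.48 ± 0.07). Of the feedback inhibitors, Cish, Socs1 and Socs2 rose in both genotypes. Cish had 0 reads in wild-type nontreat cells and 662 with IL-4, and 5 and 712 in TIF1a-KO cells. Socs1 rose from 0.83 to 26.1 and from 0.98 to 22.9 FPKM, and Socs2 from 0.22 to 2.97 and from 0.16 to 2.14 FPKM. Socs3 did not pass the test in wild-type cells (3.68 and 4.68 FPKM, adjusted p = 0.15, Fisher's exact test) and rose from 2.07 to 4.81 FPKM in TIF1a-KO cells, where its nontreat level was 1.74-fold lower than in the wild-type (adjusted p = 0.0065, Fisher's exact test).

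Ptpn2, a phosphatase related to Ptpn1, rose with log2 ratios of 0.76 ± 0.12 in wild-type and 0.99 ± 0.12 in TIF1a-KO cells, as did Snd1, a STAT6 coactivator, at 0.65 ± 0.05 and 0.63 ± 0.05. Cblb, a ubiquitin ligase, rose from 22.9 to 35.5 and from 34.8 to 56.5 FPKM, and was higher in TIF1a-KO cells in both treatments (0.60 ± 0.05 and 0.67 ± 0.04), but under 1.5-fold with the length trend removed (0.57 and 0.39). The STAT6 cofactors Ncoa1 (-1.09 ± 0.11), Crebbp (-0.86 ± 0.10) and Ep300 (-0.65 ± 0.05) and the adaptor Gab2 (-0.64 ± 0.06) fell in wild-type cells. With the trend removed their ratios were -0.70, -0.46, -0.18 and -0.34, and only Ncoa1 kept its call. In TIF1a-KO cells their ratios were also negative but not called (-0.17 ± 0.09, -0.30 ± 0.09, -0.22 ± 0.05 and -0.49 ± 0.06). There they were -0.08, -0.19, -0.09 and -0.42 with the trend removed. The remaining list gene called lower in wild-type cells was the kinase subunit Pik3cd (-0.63 ± 0.08). Pik3cd (-0.61 ± 0.07) and the ubiquitin ligase Rnf128 (-0.60 ± 0.04) were the 2 called lower in TIF1a-KO cells. Rnf128 had a similar ratio in wild-type cells (-0.57 ± 0.04), just under the threshold. With the trend removed Pik3cd lost its call in both genotypes (-0.43 and -0.58). Rnf128 kept its call in TIF1a-KO cells (-0.62) and gained one in wild-type cells (-0.59). Stat2 also gained a call in wild-type cells, as higher (0.62). Pik3cd, Rnf128 and Stat2 were picked out with their values in view. Between the genotypes 1 list gene was higher (Cblb) and 1 lower (Socs3) without IL-4, where 1.58% of all genes were called, and 2 were higher with IL-4 (Cblb and Ncoa1), where 3.8% were.

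**Figure D4:**
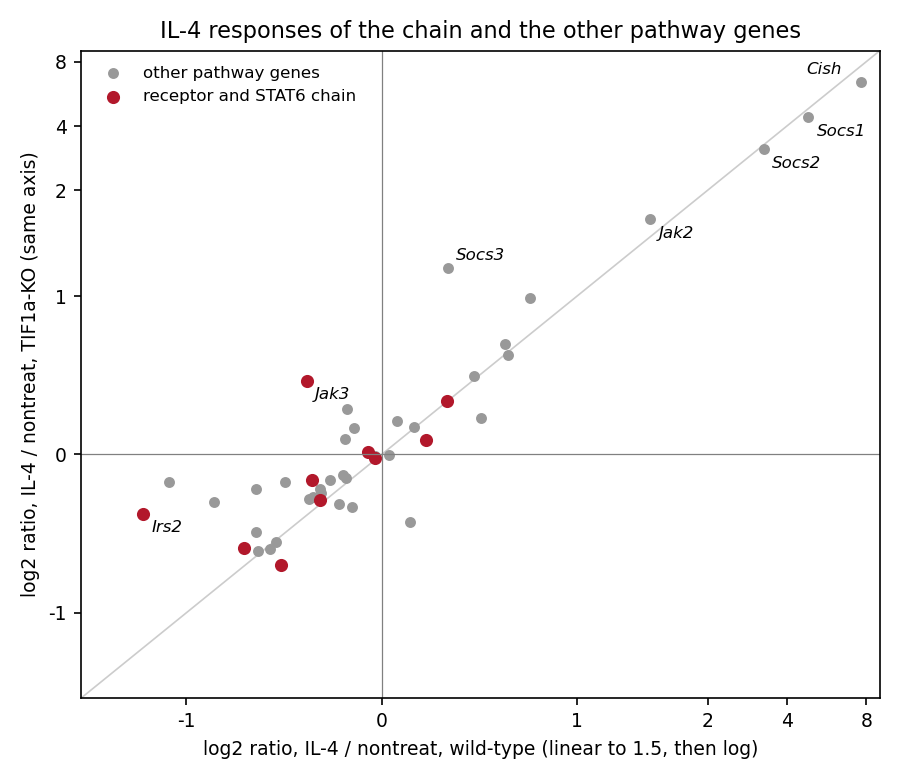
Log2 IL-4 ratio in wild-type cells (x) against TIF1a-KO cells (y) for the 10 genes of the chain (red) and the 35 other pathway genes averaging 1 FPKM or more (grey); axes are linear to 1.5 and logarithmic beyond, and the line marks equal ratios. Cish, Socs1, Socs2 and Jak2 lie far above the chain, whose genes stay between -1.22 and 0.47.

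These changes shifted the make-up of the enzyme families. Of the summed FPKM of the Janus kinases, Jak1 made up 67.5% and 59.4% in wild-type cells, nontreat and IL-4, and 67.7% and 57.9% in TIF1a-KO cells, while Jak2 went from 10.2% to 24.5% and from 10.2% to 24.2%. Tyk2 went from 18.8% to 13.6% and from 19.4% to 14.6%, so that the share of Jak2 passed that of Tyk2 in both genotypes, and Jak3 lay between 2.46% and 3.50%. Stat6 was the most abundant STAT in every library, with 45.9% and 43.1% of the STAT total in wild-type and 47.1% and 41.2% in TIF1a-KO cells. Among Ptpn1, Ptpn2, Ptpn6 and Ptpn11, the share of Ptpn6 went from 60.8% to 47.8% and from 60.2% to 43.9%. These shares are values of single libraries and were not tested.

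**Figure D5:**
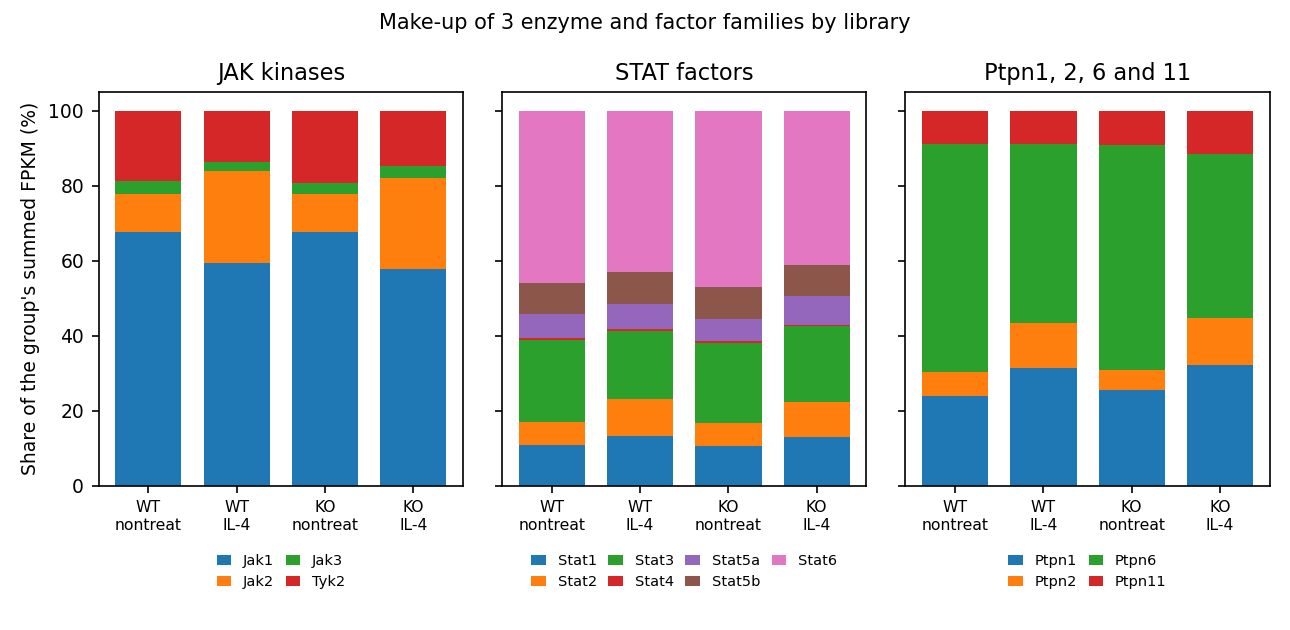
Share of summed FPKM, in percent, of each Janus kinase, each STAT factor and each of 4 tyrosine phosphatases in the 4 libraries (WT, wild-type; KO, TIF1a-KO). The share of Jak2 is larger, and that of Ptpn6 smaller, in the IL-4 libraries of both genotypes.

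The genes whose pattern over the 4 libraries was most like that of Il4ra, out of 5435 genes averaging 10 FPKM or more, were Fastk, Sil1 and Ifngr2, with root mean square distances of 0.010 to 0.012 between centred log2 values. Ifngr2, a subunit of the interferon gamma receptor, was listed at 139.98, 178, 137 and 177 FPKM. With 4 libraries such likeness is a description of few values.

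Some of the genes share exonic bases with a neighbour in the GENCODE annotation of GRCm38, and whether the reads were counted by strand is not given in the sources used here. Jak3 shares 404 bases on the same strand with Insl3, which was listed at 0, 0.46, 0 and 0.25 FPKM. Il2rg shares 728 bases on the same strand with Gm20489, and Stat6 shares 40 bases with Nab2 on the opposite strand, listed at 15.5, 26.7, 19.2 and 28.6 FPKM. Il4ra shares 571 bases, Tyk2 554, Ptpn6 195, Irs2 162 and Jak1 4 with genes on the opposite strand. The values of these 8 genes are uncertain to that extent, and the part of these neighbours in them was not tested.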

How the data were processed

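Total RNA of 4 macrophage libraries was sequenced on an Illumina HiSeq instrument. According to the study's methods and the submitters' processing notes, the authors aligned reads with Bowtie to the GRCm38 (mm10) genome, and RSEM estimated gene levels (versions not given in the sources used here). The deposited expected counts are estimated reads per gene and need not be whole (22.2% to 22.8% were not), and RSEM splits reads among near-identical genes. The authors' FPKM values are the same reads scaled by transcript length and by library total. A further deposited column gives the transcript length in bases. Genes without a read are unlisted and were set to 0.

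Samples were grouped by genotype and treatment labels, 1 library per group. The members, lists and tests were chosen with earlier results of these data known. Rounded expected counts of 2 libraries at a time were tested per gene with Fisher's exact test (two-sided, scipy 1.17.1), with Benjamini-Hochberg adjustment over every gene that had a read in either. Calls between pairs and of the difference of responses required an adjusted p below 0.05 and more than 1.5-fold change. These are the thresholds in the study's RNA-sequencing methods. For its list of IL-4-regulated genes the study gives another cut-off, stricter in fold and looser in false discovery rate. Calls of the additive model required an adjusted p below 0.05 alone. Ratios were taken of FPKM + 0.1 and are given as log2, which shrinks those of low genes. Their standard errors cover counting only, taking each count plus 0.5. Intervals of levels are 95% exact Poisson intervals, which also cover counting error only, since reads without molecular identifiers are not independent molecules. The difference of IL-4 responses was tested by an exact conditional (noncentral hypergeometric) test of the 4 counts, and its size given on counts plus 0.5. The additive model was fitted with edgeR 4.0.16 (TMM, filterByExpr, quasi-likelihood test, R 4.3.3), with DESeq2 1.42.0 and limma 3.58.1 as alternatives. The length trend was a lowess curve (fraction 0.3, statsmodels 0.14.6) over log2 transcript length of each library's log2 level relative to the average library, fitted to genes of at least 200 bases and 1 FPKM, after which counts were tested by an exact binomial test with a shifted share. On simulated counts with 200 changed genes among 16403, the pair test recovered 198 with 3 false calls. The test of the difference recovered 191 with 2, and the edgeR fit recovered 200 among 11751 with 7 false calls. These figures describe the simulated counts only. With 1 library per group, the rate of false calls in the libraries themselves was not tested. Other alternatives were pseudocounts of 0.01 and 1, CPM, TMM, DESeq2 size factors, upper-quartile scaling, a filter of 1 FPKM, every gene with a read, a fold of 2, and the exact test of edgeR at a biological coefficient of variation set to 0.1, 0.2 or 0.4.

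The named genes were the 10 members, Trim24 and Arg1 as checks, up to 12 other pathway genes called in any pair (those with the highest absolute log2 ratio at a mean of at least 1 FPKM), the 3 genes nearest in pattern to Il4ra and to Stat6 (the latter not reported here), and genes that overlap a member. Gene positions are those of RefSeq on GRCm38.p6.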

Additional observations from a re-analysis of the deposited data

Results flagged for a closer look

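The IL-4 responses of Jak3 and Irs2 differed between the genotypes in the test of the difference itself. For Jak3 the response in TIF1a-KO minus that in wild-type cells was 0.81 on the log2 scale, with the FPKM going from 3.49 to 2.65 in wild-type and from 2.83 to 3.95 in TIF1a-KO cells. For Irs2 it was 0.89, with the FPKM going from 3.40 to 1.40 and from 2.96 to 2.26. Each difference is read from 1 library per group, and each lost its call when the length trend, which is strongest in the wild-type IL-4 library, was removed (0.73 and 0.79).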

How the results depend on the processing

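No paired analysis was possible because each group is 1 library and the labels carry no replicate numbers. For the same reason no library could be left out. The counts of chain genes called were 2 and 2 for IL-4 in wild-type and TIF1a-KO cells, 0 and 1 for genotype without and with IL-4, and 2 for the difference of responses. Those of the pathway list were 12, 10, 2 and 2. With a fold above 2 the chain counts became 1, 0, 0 and 0 and the list counts 5, 5, 0 and 0, and the difference gave 0. At a pseudocount of 1, the chain gave 1 for IL-4 in TIF1a-KO cells (Il13ra1 lost) and 0 for genotype with IL-4 (Irs2 lost), and the list 1 for genotype without IL-4. With the length trend removed, the chain gave 0 for genotype with IL-4 and 0 for the difference, and the list gave 1 for each genotype comparison. With the biological coefficient of variation set to 0.1, the chain gave 1 for IL-4 in TIF1a-KO cells (Ptpn6) and 0 for genotype with IL-4. The list gave 0 and 1 for genotype. At that setting the IL-4 ratios of Il4ra and Stat6 in both genotypes no longer had an adjusted p below 0.05. The same held for Tyk2, Ptpn6 and Ptpn1 in wild-type cells. At 0.2 and at 0.4 the chain gave 0 in every pair, while the list gave 3 and 2 for IL-4 in wild-type, 4 and 2 for IL-4 in TIF1a-KO cells and 0 for genotype. In the additive fit the 5 IL-4 calls became 2 with every gene that had a read, 1 by DESeq2, 3 by limma and 6 with the length trend removed (Ptpn1 gained). Over all genes the pair counts ran from 45 to 2030 for IL-4 in wild-type (1993 as reported), 33 to 1491 in TIF1a-KO cells (1466), 7 to 252 for genotype without IL-4 (247) and 11 to 623 with IL-4 (592). Those of the additive fit ran from 1229 to 3907 (2987) and 24 to 624 (196), and those of the difference were 96 to 297 under the alternatives and 306 as reported.

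Directions that turned were of small ratios. By TMM scaling Il2rg in wild-type cells went to 0.0011. With the length trend removed Jak1 went to 0.17 for IL-4 in wild-type cells, -0.090 for genotype with IL-4, and 0.12 and -0.037 in the additive fit. Ptpn1 went to -0.0061 for the genotype effect there. The differences of responses went to -0.18 for Il4ra, -0.11 for Jak1 and -0.054 for Stat6. The cause of these changes was not tested. At this depth Jak3 and Irs2 rest on the fewest reads.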
